A study of Mus musculus with 6 samples.

Results

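A set of 10 genes that buffer and move zinc and copper was followed in primary mouse hepatocytes before and during liver regeneration. They were chosen by gene name from GENCODE release M21 and comprise the metallothioneins Mt1 and Mt2, the transcription factor Mtf1, the efflux transporters Slc30a1 and Slc30a10, the importers Slc39a4, Slc39a8 and Slc39a14, the copper importer Slc31a1 and the copper ATPase Atp7b. All 10 genes were found, each once, among the 55450 genes listed in every library. Bulk RNA-Seq was done on hepatocytes isolated by collagenase perfusion from male C57BL/6 mice (C57BL/6J in the study's methods) on a normal diet, 10 to 12 weeks old according to the labels, while the study's text gives a slightly younger range. The group named 0hr holds 3 libraries from undamaged liver, and the group named 48hr holds 3 libraries from the remaining liver at 48 hours after partial hepatectomy (PHx), an operation that removes part of the liver. The study describes the 3 libraries of a time point as biological replicates from different mice. The 0hr mice had no sham operation, so the effects of surgery and of tissue loss cannot be told apart in this comparison.

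Metallothioneins are small, cysteine-rich proteins of the cytosol that hold zinc and copper through the sulfur atoms of their cysteines, and the liver is a main site of their synthesis. Their genes are switched on when free zinc rises, because zinc allows the factor MTF-1, encoded by Mtf1, to bind short DNA elements called metal response elements (MREs) in their promoters; glucocorticoids and inflammatory cytokines also induce them. Zinc enters cells through ZIP transporters (the Slc39 genes) and leaves the cytosol through ZnT transporters (the Slc30 genes), while copper enters hepatocytes through CTR1, encoded by Slc31a1, and is passed by ATP7B to secreted ceruloplasmin or to bile.

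Mt1 and Mt2 lie on the plus strand of chromosome 8, in the annotation of GRCm38 (mm10) at chr8:94179082-94180327 and chr8:94172664-94173568, with 5513 bases between them, and Mt3 and Mt4 lie upstream in the same 43.1-kb cluster. Their coding sequences, assembled from the GENCODE M21 models, are shown because the cysteine codons, in capitals, are what makes these proteins bind metal.
Mt1: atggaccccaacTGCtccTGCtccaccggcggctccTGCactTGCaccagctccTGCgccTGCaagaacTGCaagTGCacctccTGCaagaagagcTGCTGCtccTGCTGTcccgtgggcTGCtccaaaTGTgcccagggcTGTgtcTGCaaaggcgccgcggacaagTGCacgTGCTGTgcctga
Mt2: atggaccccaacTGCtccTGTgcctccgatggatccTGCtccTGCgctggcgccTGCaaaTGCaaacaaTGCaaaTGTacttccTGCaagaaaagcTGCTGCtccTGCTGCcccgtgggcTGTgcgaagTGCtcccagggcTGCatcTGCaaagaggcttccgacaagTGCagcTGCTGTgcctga
Each coding sequence has 186 bases with its stop codon, or 61 codons without it, and 20 of these codons encode cysteine in either gene, all 20 at the same positions. These sequences are identical at 148 of 186 bases (79.6%), and their longest identical run is 20 bases. The gene models of Mt1 and Mt2 share no stretch of 50 bases.

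The promoter windows of Mt1, Mt2 and the zinc exporter gene Slc30a1 are shown because all 3 genes are textbook targets of MTF-1. Each RefSeq window (GRCm38.p6) runs from 250 bases before the annotated start to 50 bases after it, 5′ to 3′ on the strand of the gene, and capitals mark the 7-base MRE core, TGCACNC or TGCGCNC on the printed strand or its reverse complement.
Mt1, chr8:94178839-94179138, plus strand: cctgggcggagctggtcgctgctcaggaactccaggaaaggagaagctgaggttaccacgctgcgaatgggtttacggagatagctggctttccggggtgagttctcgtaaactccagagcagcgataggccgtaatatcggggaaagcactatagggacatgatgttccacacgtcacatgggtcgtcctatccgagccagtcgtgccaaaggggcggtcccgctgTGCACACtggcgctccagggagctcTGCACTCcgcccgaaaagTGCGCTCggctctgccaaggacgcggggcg
Mt2, chr8:94172368-94172667, plus strand: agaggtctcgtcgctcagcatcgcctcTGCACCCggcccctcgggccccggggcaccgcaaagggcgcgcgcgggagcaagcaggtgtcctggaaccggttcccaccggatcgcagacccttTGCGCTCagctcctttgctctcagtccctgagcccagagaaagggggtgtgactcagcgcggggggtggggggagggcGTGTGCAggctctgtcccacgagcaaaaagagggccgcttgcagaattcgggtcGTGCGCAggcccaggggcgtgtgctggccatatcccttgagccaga
Slc30a1, chr1:191906531-191906830, plus strand: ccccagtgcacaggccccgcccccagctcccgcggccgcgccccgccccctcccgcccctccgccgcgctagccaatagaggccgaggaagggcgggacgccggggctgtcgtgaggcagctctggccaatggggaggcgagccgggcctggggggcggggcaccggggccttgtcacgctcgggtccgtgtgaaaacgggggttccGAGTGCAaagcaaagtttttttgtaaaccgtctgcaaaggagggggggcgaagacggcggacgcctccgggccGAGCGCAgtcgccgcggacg
The Mt1 window holds 3 cores, all on the strand of the gene, which begin at positions -23, 3 and 21 relative to the annotated start, counted as 1. The Mt2 window holds 4 cores, beginning at -223 and -128 on the strand of the gene and at -50 and 5 on the other strand. The Slc30a1 window holds 2 cores, both on the other strand, at -43 and 31. Over all 32851 mouse promoter windows of the same length, 25.7% held at least 1 core, 7.11% at least 2, 1.97% at least 3 and 0.517% at least 4. Windows were found for 8 of the 10 genes (not for Slc39a4 and Slc39a14), and 6 of these had a core: beside the 3 above, Slc30a10 had 3, of which 2 overlapped each other on opposite strands, and Atp7b and Slc39a8 had 1 each, the latter in 1 of its 2 windows. The windows of Mtf1 and Slc31a1 held none of these letters. A core is a match of letters and not a measured binding site. Bases outside these windows were not searched, and the positions depend on the annotated start used.

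**Figure D1:**
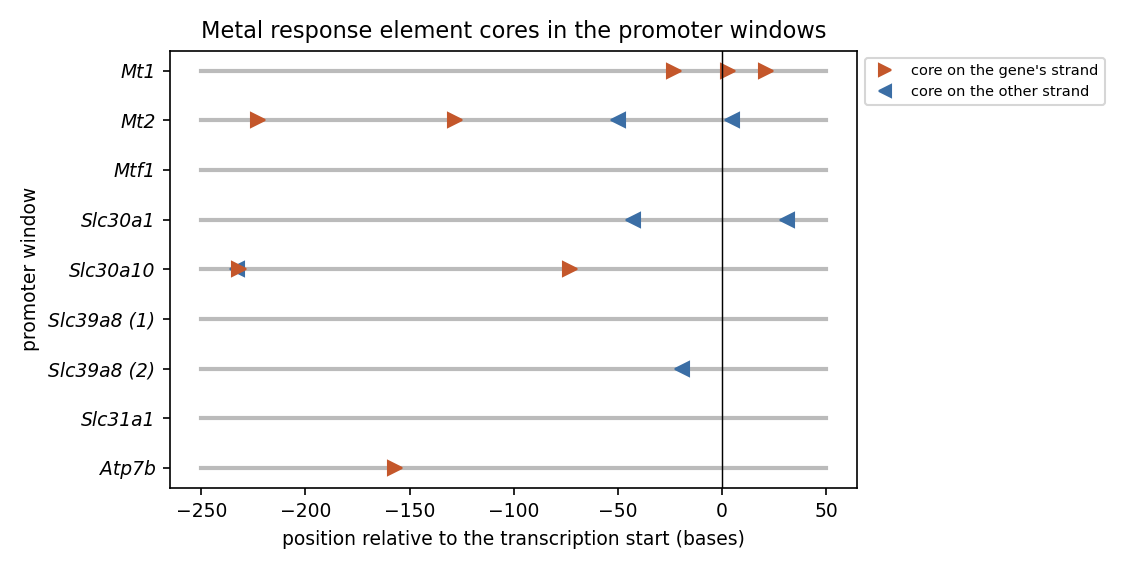
MRE cores in the promoter windows of the genes with a window, by position in bases relative to the annotated transcription start; right-pointing red triangles are cores on the strand of the gene and left-pointing blue triangles cores on the other strand. The 4 cores of Mt2 are spread over its window, while the 3 cores of Mt1 lie between -23 and 21.

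Gene counts summed to 31419443 to 36346220 per library at 0hr and 31684152 to 33093006 at 48hr, so that a floor of 3 counts equals 0.0825 to 0.0955 CPM (counts scaled to library totals of 1e6) and covers counting error only. The markers of hepatocytes (15 genes) dominated all libraries with a summed level of 110342 to 129466 CPM at 0hr and 84492 to 94780 CPM at 48hr, and 7 of the 15 fell and 1 rose. Markers of other liver cells were low: the 12 Kupffer cell genes summed to 80.9 to 122 CPM at 0hr and 130 to 170 CPM at 48hr (4 rose, 0 fell, Marco most with a log2 fold change of 3.19), the 14 endothelial genes to 279 to 439 and 218 to 265 CPM (0 rose, 12 fell, Clec14a most with -1.61), the 10 stellate cell genes to 66.1 to 109 and 61.9 to 79.5 CPM (1 rose, 3 fell, Col1a1 most with 2.30) and the 8 cholangiocyte genes to 9.15 to 19.7 and 19.2 to 30.0 CPM (of 3 tested, 2 were called higher, Muc1 among them having passed the filter only through 48hr, and 0 fell). Of 11 neutrophil granule genes, Mpo, Ctsg, Ltf and Retnlg were at 0 in all 6 libraries, and the list summed to 0.214 to 0.446 CPM at 0hr and 10.9 to 21.7 CPM at 48hr, of which Prtn3 alone was tested, with 2, 2 and 5 counts at 0hr and 697, 519 and 309 at 48hr, so that it passed the filter only through the 48hr libraries. By the test described below, 21.4% of all tested genes were called higher and 19.3% lower, beside the marker genes that rose or fell. The part of the marker shifts in the results below was not tested, and in bulk RNA fewer cells of a type and less RNA per cell cannot be told apart.

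Among the 10 genes, the metallothionein gene Mt1 rose at 48 hours after PHx, while Slc30a10, Slc39a4, Slc39a8 and Atp7b fell. Mt2 was nearly without counts at 0hr and was called higher, but it entered the test only through its 48hr libraries, so this call had to favour a difference and is given as a description. No call was made for Mtf1, Slc30a1, Slc39a14 or Slc31a1. Differences were tested with edgeR's quasi-likelihood test over the 17037 genes that reached 10 counts in 3 or more libraries, and a gene was called when its Benjamini-Hochberg adjusted p over all these genes was under 0.05. The other 9 genes passed the filter in the libraries of both time points. The share of all tested genes called was 21.4% higher and 19.3% lower, against 1 and 4 of the 9 genes without Mt2. In numbers, 3638 genes were higher and 3288 lower, and with scaling to library size alone, without TMM, 5308 were higher and 2110 lower. The levels of both time points did not overlap for 8 of these 9 genes, 3 with 48hr above and 5 with 48hr below, against 52.7% of all tested genes in either direction. The median log2 fold change of the 9 genes was -0.26, or -0.07 with Mt2 included, and that of all tested genes was -0.00325.

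**Figure D2:**
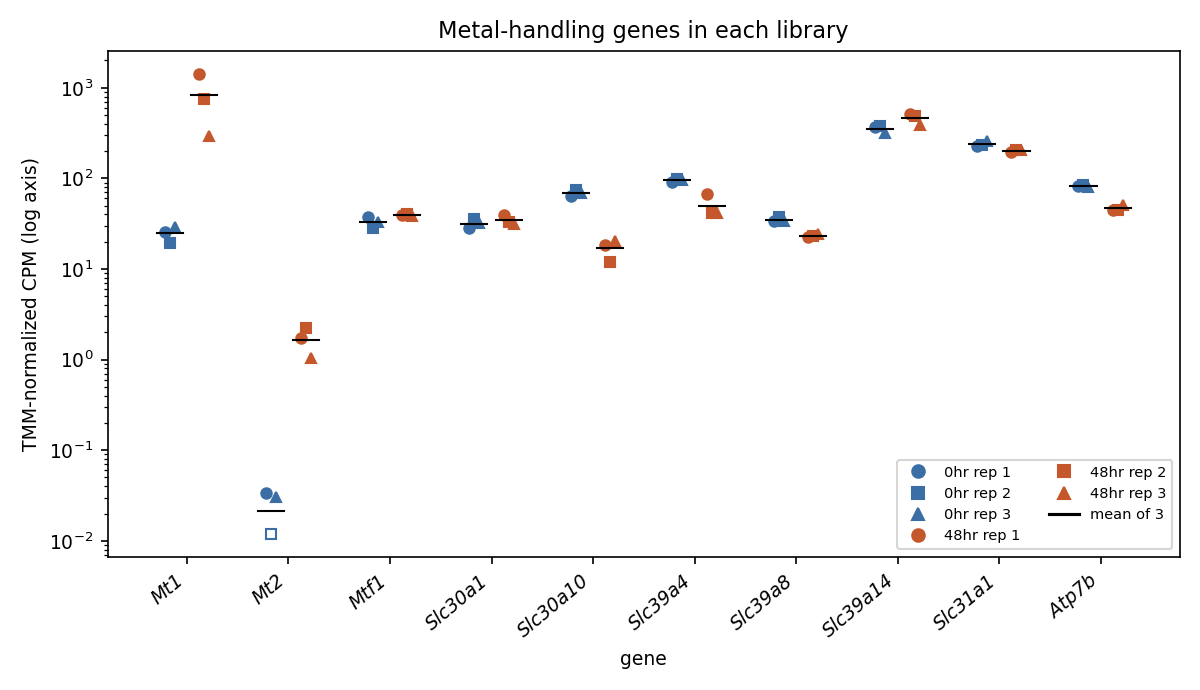
Level of each of the 10 genes in each library as TMM-normalized CPM on a log axis, with 0hr in blue, 48hr in red, symbols for replicates 1 to 3 and a black line for the mean of 3; the open symbol marks a library with 0 counts, drawn at the bottom of the axis. Mt1 spans 294 to 1428 CPM at 48hr against 19.4 to 29.1 CPM at 0hr, and Slc30a10 lies below its 0hr levels in all 48hr libraries.

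Mt1 (ENSMUSG00000031765.8) had 25.5, 19.4 and 29.1 CPM in the 0hr libraries and 1428, 752 and 294 CPM in the 48hr libraries, where CPM is scaled by TMM, a correction for differences in library composition. Every 48hr library was far above every 0hr library, but the 48hr libraries also spread widely among themselves, the highest being 4.85 times the lowest. The mean went from 24.7 ± 4.92 CPM (SD, n = 3) to 825 ± 570 CPM (SD, n = 3). The log2 fold change was 5.06 with a standard error (SE) of 0.504 (edgeR adjusted p = 3.05e-05), which is 33.4-fold with a 95% interval of 15.4 to 72.5. Without the first 48hr library the fold change was 21.2 instead. By mean CPM, Mt1 moved from rank 4688 to rank 110 of the 17037 tested genes. Of the counts on the 10 genes together, Mt1 took 2.68%, 1.95% and 3.07% at 0hr and 60.2%, 45.9% and 27.1% at 48hr.

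Mt2 (ENSMUSG00000031762.7) had 1, 0 and 1 counts at 0hr and 58, 80 and 36 counts at 48hr. The 0hr libraries were all below the 3-count floor and the 48hr libraries all above it, yet even the highest 48hr library held only 2.24 CPM. Summed over libraries and scaled to their totals, 174 counts at 48hr against 2 at 0hr gave a ratio of 89.7 with an exact 95% interval of 24.5 to 747 for counting error only. The fitted log2 fold change of 6.05 depends on the prior count added to such low values. Since Mt2 passed the filter only where it is high, its adjusted p is not given as evidence. For the same reason the ratio and its interval are a description and not evidence of a change. Mt2 stayed far below Mt1 in all libraries and made up at most 0.133% of the counts of the pair in a 0hr library and at most 0.348% in a 48hr library. With 0.5 added to each count, the log2 ratio of Mt2 to Mt1 was -8.97, -10.23 and -9.33 at 0hr and -9.68, -8.38 and -8.14 at 48hr. These ranges overlapped, and the 0hr values rest on at most 1 count of Mt2 and on the 0.5 added, so no change of the ratio could be read from them. The summed level of both genes, scaled to library totals, was 23.0 ± 4.18 CPM at 0hr and 869 ± 565 CPM at 48hr (SD, n = 3), a difference of 846 CPM with an exact permutation p of 0.1, the smallest that 3 against 3 libraries allow. Without the first 48hr library this difference was 554 CPM.

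The exons of Mt2 are shared with a gene on the other strand in the annotation. On the minus strand, the antisense gene Gm45774 (chr8:94170748-94173412) covers 73.5% of the exon bases of Mt2, whereas no annotated gene overlaps the exons of Mt1. Gm45774 itself had 12, 2 and 1 counts at 0hr and 85, 83 and 18 counts at 48hr, with a fitted log2 fold change of 3.43, and like Mt2 it passed the filter only through its 48hr libraries. Whether the counting used strand is not given in the sources used here, and without strand, reads of Mt2 and Gm45774 cannot be told apart. Reads that fit 2 genes stand in a separate line of ambiguous reads, which held 4.27% to 4.67% of the reads at 0hr and 4.61% to 5.29% at 48hr. Among protein-coding genes, 16 of the 100 with over 70% of their exon bases overlapped on the opposite strand had at least 60 counts over the 6 libraries, and their median count was 0. The share with at least 60 counts was 58.4% of 113 genes with over 50% to 70% overlap, 76.8% of 5074 genes with up to 50% overlap and 52.8% of 16664 genes with no overlap, so it did not follow the overlap step by step. Mt2, with 176 counts in all, was 8th by count among the 100. These shares describe classes of genes, and the part of the overlap in the counts of Mt2 was not tested.

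**Figure D3:**
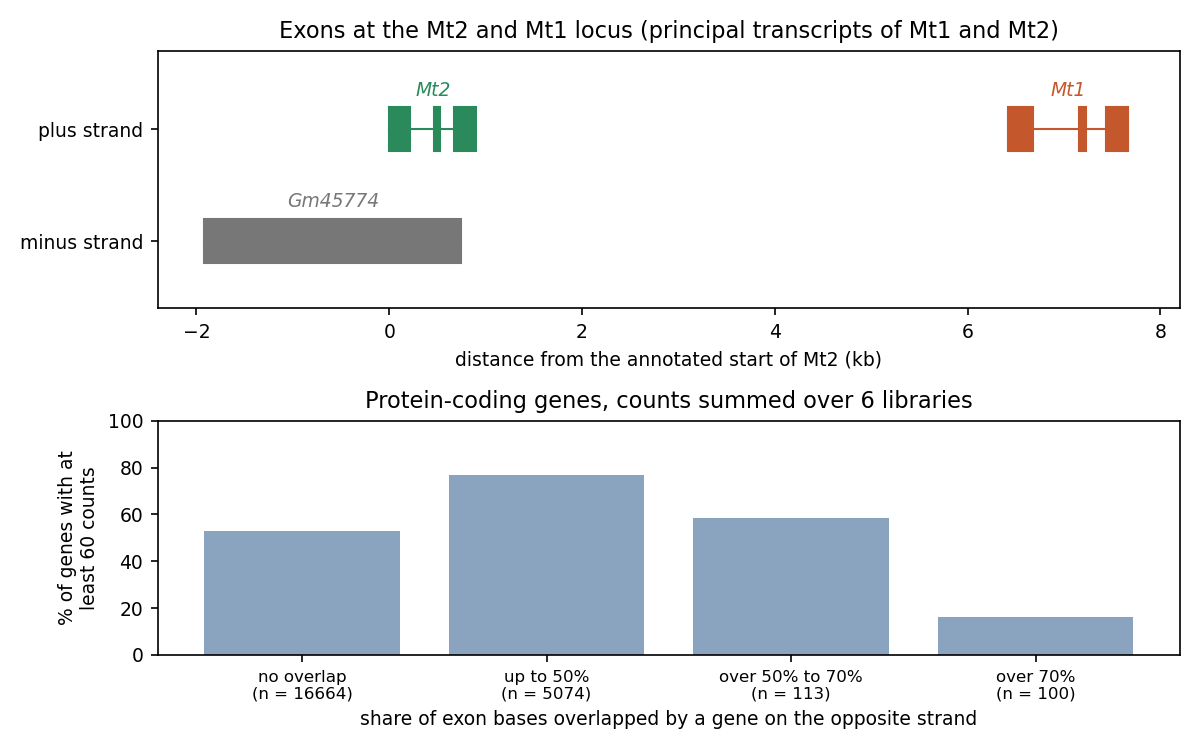
Top, exons of Mt2, Mt1 and the antisense gene Gm45774 by distance in kb from the annotated start of Mt2, with the strand on the vertical axis. Bottom, the percentage of protein-coding genes with at least 60 counts summed over the 6 libraries, for classes of opposite-strand overlap of their exon bases; the class with over 70% overlap, which holds Mt2, stands at 16%.

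Mtf1, which encodes the zinc-sensing activator of the metallothionein genes, had 37.04, 28.5 and 32.9 CPM at 0hr and 39.8, 40.5 and 38.8 CPM at 48hr. All 48hr libraries lay above all 0hr libraries, but the gap between 37.04 and 38.8 CPM was smaller than the spread within 0hr. The log2 fold change was 0.28 with a 95% interval of 0.02 to 0.53 before adjustment, and it missed the threshold (edgeR adjusted p = 0.0772). Without the first 0hr library it was 0.36 and passed (edgeR adjusted p = 0.0423). Slc30a1 encodes ZnT1, the zinc exporter of the cell surface, and had 28.0, 35.2 and 32.0 CPM at 0hr and 39.2, 32.8 and 31.2 CPM at 48hr. It was the only gene of the 10 whose time points overlapped, with a log2 fold change of 0.12 and an interval of -0.16 to 0.39 (edgeR adjusted p = 0.499). The interval reaches from 0.893-fold to 1.31-fold, so a change the size of that of Mt1 lies outside it.

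Slc30a10 encodes an efflux transporter best known for removing manganese from hepatocytes. Its levels were 63.3, 74.8 and 68.5 CPM at 0hr and 18.6, 12.0 and 20.2 CPM at 48hr. The highest 48hr library was far below the lowest 0hr library. The mean fell from 68.9 ± 5.76 CPM to 16.9 ± 4.37 CPM (SD, n = 3), a log2 fold change of -2.03 (SE 0.177, edgeR adjusted p = 1.26e-05), or 4.07-fold lower. The gene Gm2061, on the opposite strand over 9.13% of its exon bases, had 21 to 34 counts at 0hr and 3 to 7 counts at 48hr, and it passed the filter only through its 0hr libraries (fitted log2 fold change -2.63).

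Slc39a4 encodes ZIP4, the zinc importer best known from intestinal zinc uptake, and had 91.0, 97.5 and 96.4 CPM at 0hr and 66.9, 41.4 and 41.3 CPM at 48hr. The first 48hr library stood above the other 2, but all 3 lay below every 0hr library. The mean fell from 94.99 ± 3.51 to 49.9 ± 14.7 CPM (SD, n = 3), with a log2 fold change of -0.93 (SE 0.176, edgeR adjusted p = 0.00192). Slc39a8 encodes ZIP8, an importer of zinc and manganese, and had 33.4, 37.7 and 33.6 CPM at 0hr and 22.7, 23.0 and 24.5 CPM at 48hr. Its groups were tight and did not overlap, with a log2 fold change of -0.58 (SE 0.102, edgeR adjusted p = 0.00126).

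Slc39a14 encodes ZIP14, which carries zinc, iron and manganese into hepatocytes and is induced by interleukin 6 in the acute phase response. It had 367, 381 and 317 CPM at 0hr and 515, 484 and 383 CPM at 48hr. The lowest 48hr library was only just above the highest 0hr library. The log2 fold change was 0.38 with an interval of 0.05 to 0.70 before adjustment and missed the threshold (edgeR adjusted p = 0.0651). It passed without the third 48hr library (0.50, edgeR adjusted p = 0.0241) and with DESeq2 (0.37, adjusted p = 0.0429).

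For copper, the importer gene Slc31a1 had 226, 235 and 259 CPM at 0hr and 195, 205 and 203 CPM at 48hr. The 48hr libraries lay below the 0hr libraries, and the log2 fold change of -0.26 (interval -0.51 to -0.01 before adjustment) did not pass the threshold (edgeR adjusted p = 0.0959). Atp7b, the ATPase that exports copper and whose loss causes Wilson disease, had 82.3, 84.5 and 80.0 CPM at 0hr and 45.3, 45.3 and 50.2 CPM at 48hr. Both groups were narrow and far apart, with means of 82.3 ± 2.28 and 46.9 ± 2.86 CPM (SD, n = 3) and a log2 fold change of -0.81 (SE 0.0977, edgeR adjusted p = 0.000113).

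Levels were compared between genes as CPM per kilobase of the principal transcript. At 0hr, Slc39a14 was highest with 72.1 CPM per kb, followed by Slc31a1 with 64.6, and the ranges of these neighbours over the libraries overlapped. Next came Mt1 with 44.9 and Slc39a4 with 34.5, also with overlapping ranges. Atp7b with 12.6 and Slc30a10 with 11.8 overlapped as well, and Slc39a8 with 9.88, Slc30a1 with 6.05, Mtf1 with 4.30 and Mt2 with 0.0418 followed without overlap. At 48hr Mt1 led with 1503 CPM per kb, and its lowest library, at 536, was above the highest of Slc39a14, whose mean was 93.5. Slc31a1 (54.1), Slc39a4 (18.1) and Atp7b (7.21) kept that sequence below it. Slc39a8 (6.62) and Slc30a1 (6.56) had overlapping ranges, as did Mt2 (3.25) and Slc30a10 (2.90) at the end, with Mtf1 (5.20) between these pairs. By its mean, Slc30a10 thus went from just below Atp7b to the last place, but its range overlapped that of Atp7b at 0hr and that of Mt2 at 48hr. The order also depends on the transcript length used. For Mt2, 73.5% of the exon bases are overlapped by Gm45774, and the part of this in its level and place was not tested.

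The profile of Mt1 over the 6 libraries, as log2 of CPM + 0.5 centred on its own mean, was compared with 7563 genes of at least 10 CPM on average, and the smallest root mean square differences were those of Ccnb1 (0.479), Kif2c (0.486), Cdca2 (0.527), Apoa4 (0.529) and Kif20a (0.533). Ccnb1, Kif2c, Cdca2 and Kif20a act in mitosis, and Apoa4 encodes an apolipoprotein. The mitotic genes had at most 1.45 CPM at 0hr and reached the mean of 10 CPM only through their 48hr libraries. That filter favoured genes with a steep rise, so their likeness to Mt1 is given as a description. Apoa4 had 16.0, 17.4 and 15.9 CPM at 0hr and 383, 450 and 138 CPM at 48hr. The order depends on the 0.5 added. With no offset, a setting chosen after seeing the data, Apoa4 came first (0.527). Gtse1 (0.568), Brca1 (0.575) and Isyna1 (0.581) followed at ranks 2 to 4. They had at most 4.41 CPM at 0hr and likewise met the filter only through 48hr. Kif20a was at rank 5 (0.591) and Cdca2 at rank 7 (0.597). Ccnb1 and Kif2c, both at most 0.548 CPM at 0hr, were at ranks 69 (0.920) and 77 (0.962). No rank is given for Mt2, whose 0hr levels lie far under the 0.5 added. The 6 points of each profile share their libraries, and likeness over 2 time points is largely the size of the change.

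Of the other zinc transporter genes, 16 of 19 were tested, and 5 rose and 1 fell, with a median log2 fold change of 0.25, beside 21.4% higher and 19.3% lower among all tested genes. Among the ZIP importers, 10 of 11 were tested, and by the smallest adjusted p these were Slc39a3, which fell from 9.73 to 6.46 CPM (log2 fold change -0.59, edgeR adjusted p = 0.00556), Slc39a1, a surface importer, which rose from 105 to 143 CPM (0.45, adjusted p = 0.0091), and Slc39a6, which rose from 2.14 to 3.95 CPM (0.88, adjusted p = 0.0135). The call for Slc39a6 was lost without the third 0hr library (0.77, adjusted p = 0.0555) or the first 48hr library (0.76, adjusted p = 0.0529). Among the ZnT genes, 6 of 8 were tested, 3 rose and 0 fell.

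Slc30a3, known for loading zinc into vesicles of neurons, had 14, 12 and 13 counts at 0hr and 68, 112 and 145 counts at 48hr. All 48hr libraries were above all 0hr libraries, with a log2 fold change of 2.88 (SE 0.327, edgeR adjusted p = 7.38e-05), from a mean of 0.418 to 3.10 CPM. Slc30a5 and Slc30a4, named here after their values were seen, also rose, with log2 fold changes of 0.76 (37.1 to 62.7 CPM) and 0.71 (12.4 to 20.3 CPM); both encode transporters of internal compartments. The summed level of the 8 ZnT genes, here scaled to library totals without TMM, was 150 to 164 CPM at 0hr and 211 to 237 CPM at 48hr. Mt3 had counts only in 2 of the 48hr libraries (9, 1 and 0), Mt4 had 0 in all 6, and neither was tested, so that in this gene cluster Mt1 alone had counts at both time points that the filter kept.

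Of the 15 genes for copper chaperones and copper handling, 14 were tested, and 2 rose and 3 fell, with a median log2 fold change of -0.15, shares near the 21.4% higher and 19.3% lower of all tested genes. Steap4, a reductase of iron and copper, had 85.3, 106 and 86.3 CPM at 0hr and 478, 295 and 367 CPM at 48hr. Every 48hr library was above every 0hr library, with a log2 fold change of 2.04 (SE 0.184, edgeR adjusted p = 1.53e-05). The other called genes are named after their values were seen. Cp, which encodes the copper-carrying ferroxidase ceruloplasmin, had 1075, 1367 and 1344 CPM at 0hr and 2889, 1587 and 1703 CPM at 48hr, with a log2 fold change of 0.71 (edgeR adjusted p = 0.0312). Its call rests on few libraries: without the first 48hr library the log2 fold change was 0.38 (adjusted p = 0.088), and leaving out any of the 0hr libraries also ended it (0.59 to 0.76, adjusted p from 0.0545 to 0.117), as did upper quartile scaling (adjusted p = 0.0512) and the replicate block (adjusted p = 0.0685). Steap3, an iron reductase, fell from 72.8 to 39.8 CPM (-0.87, adjusted p = 0.00036), Ccs, the chaperone that delivers copper to superoxide dismutase, from 50.5 to 34.3 CPM (-0.56, adjusted p = 0.00325), and Slc31a2 from 5.32 to 3.73 CPM (-0.51, adjusted p = 0.0363). The call for Slc31a2 was lost when any single library was left out (adjusted p from 0.0516 to 0.144), with scaling to library size alone (adjusted p = 0.176) and with the replicate block (adjusted p = 0.0663).

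**Figure D4:**
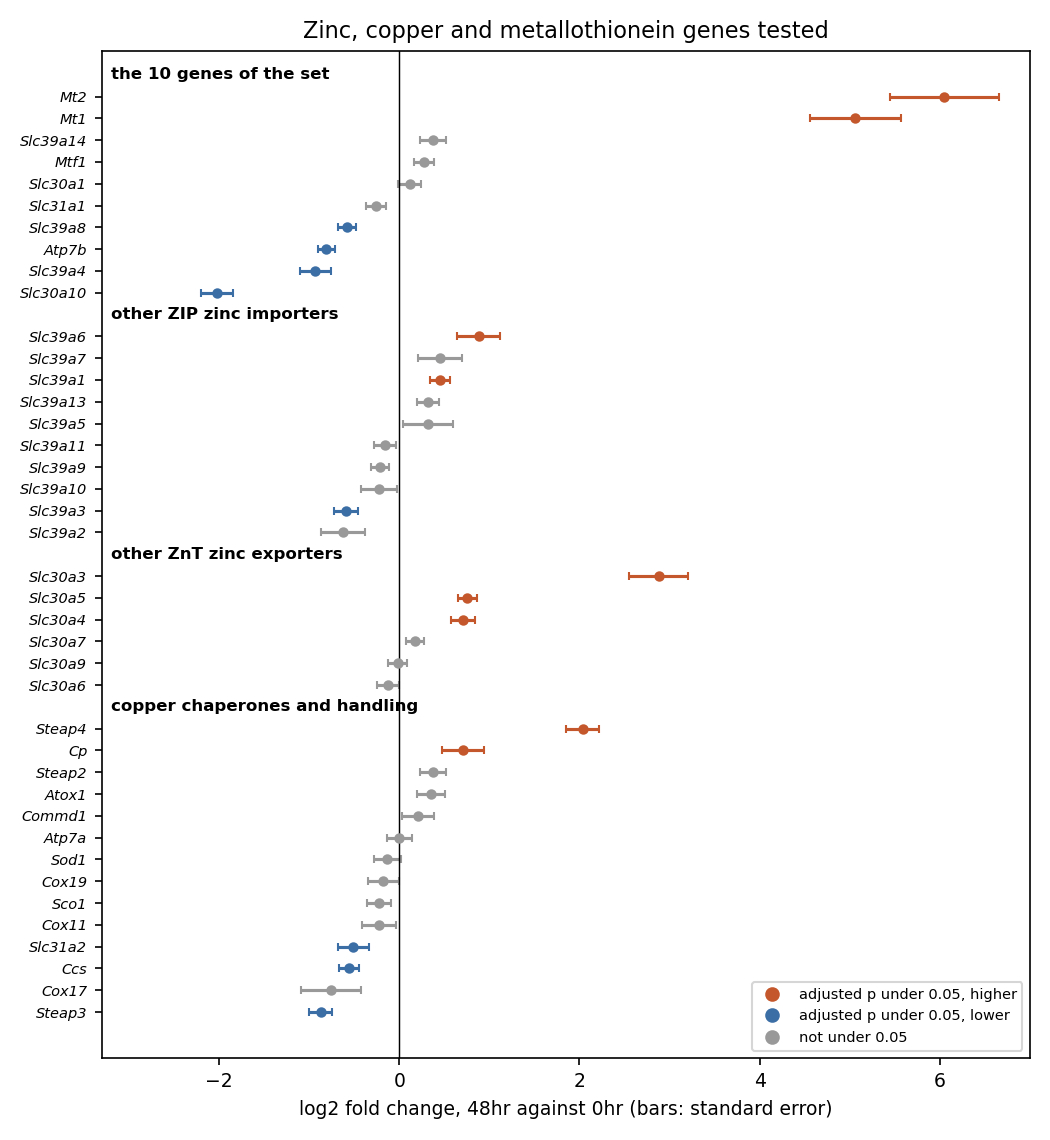
Log2 fold change at 48hr against 0hr with its standard error for the 10 genes and for the other zinc and copper genes tested; red marks an adjusted p under 0.05 with a higher level at 48hr, blue one with a lower level and grey the rest. Mt1 and Mt2 stand at 5.06 and 6.05, Slc30a3 and Steap4 at 2.88 and 2.04, and Slc30a10 at -2.03.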

How the data were processed

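The deposited files hold raw counts of reads per gene, which the authors made without normalization. The submitters' processing notes name FastQC 0.11.5, Trim Galore 0.6.4, STAR 2.6, HTSeq 0.12.4, DESeq2 and mm10; the strand setting and counting mode are not given in the sources used here. Identifiers with version matched GENCODE M21. Time point and replicate came from the sample titles.

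The test was run in edgeR 4.0.16 (R 4.3.3; TMM, glmQLFit, glmQLFTest, time point only) after a filter of 10 counts in 3 libraries. The SE is the log2 fold change over the square root of F, and 95% intervals use the test's degrees of freedom. Alternatives were other scalings, other filters, DESeq2 1.42.0, limma-voom 3.58.1, a log2 fold change of at least 1, a replicate block and leaving out each library.

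Among the zinc and copper lists, genes called with a log2 fold change of at least 1 were named, otherwise the 3 of smallest adjusted p. Members and lists were chosen with earlier results of these data known. Between-gene levels use the principal transcript, since merged exons of Mt1 include retained introns. Promoter windows are from RefSeq.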

Additional observations from a re-analysis of the deposited data

How the results depend on the processing

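None of the log2 fold changes of the 10 genes changed sign in up to 16 alternatives, or 13 for Mt2, which misses the filter once a 48hr library is left out. They ranged over 4.41 to 5.47 (Mt1), 5.54 to 6.43 (Mt2), -2.17 to -1.83 (Slc30a10), -1.20 to -0.74 (Slc39a4), -0.66 to -0.38 (Slc39a8) and -0.89 to -0.61 (Atp7b), and these calls were lost only where a log2 fold change of at least 1 was required (Slc39a4, Slc39a8 and Atp7b) or, for Mt2, whose call is a description, where it was not tested. Scaling to library size alone moved the median of all genes by 0.20 on the log2 scale. It gave 4 of the 10 genes as higher, Mt2 included, with Mtf1 (0.48, adjusted p = 0.0066) and Slc39a14 (0.57, adjusted p = 0.0091) added. It also gave 4 copper genes as higher, and 5308 of all genes higher and 2110 lower against 3638 and 3288 with TMM. Slc31a1 was called lower with upper quartile scaling (-0.34, adjusted p = 0.0321) and with TMM on protein-coding genes (-0.31, adjusted p = 0.0438).

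Leaving out 1 library gave 1 to 3 of the 10 genes as higher, Mt2 included where it was tested. Without the first or the second 48hr library the number was 1, which was Mt1, because Mt2 then missed the filter. Leaving out 1 library gave 1 to 2 copper genes as higher. Requiring a log2 fold change of at least 1 left 1 of the 10 genes lower, 1 other zinc transporter higher and 0 lower, 1 copper gene higher and 0 lower, and 1651 of all genes higher and 1353 lower. Other zinc transporters called lower numbered 3 with upper quartile scaling and 2 with TMM on protein-coding genes, and upper quartile scaling left 1 copper gene higher. The cause of these shifts was not tested beyond what each setting changes by construction.

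Replicate numbers did not pair the libraries, which came from different mice. The deviations of same-numbered libraries correlated by 0.036, -0.0931 and -0.166, and not every library correlated best with its own number. With the replicate block, 2 of the 10 genes were higher (Mt1, and Mt2 as a description) and 4 lower. In the same setting 1 copper gene was higher and 2 lower, Cp and Slc31a2 having lost their calls. Of all genes, 3237 were higher and 2884 lower. Depth limits Mt2 at 0hr, where 3 counts would have been 0.0825 to 0.0955 CPM.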

Other observations

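Immediate early genes are induced within minutes to hours by growth factors and stress. All 12 genes of the list, which also holds the heat shock genes Hspa1a and Hspa1b, were tested in the same libraries. Fos and Fosb rose, and Junb, Ier2, Dusp1 and Zfp36 fell. Ier3 was called higher but passed the filter only through its 48hr libraries (5, 10 and 4 counts at 0hr, 62, 54 and 38 at 48hr). The summed level of the list, scaled to library totals without TMM, was 1811 to 2170 CPM at 0hr and 1175 to 1784 CPM at 48hr. The median log2 fold change of the list was -0.18, and 21.4% of all tested genes were called higher and 19.3% lower. The part of the shifts of this list in the level of Mt1 was not tested.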
